A study of Homo sapiens with 6 samples.

Results

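The LIN28, let-7 and oncofetal RNA-binding genes form a set of 10 genes, chosen by name, among the 60499 Ensembl gene IDs of the deposited tables. The set holds LIN28A, LIN28B, the let-7 host transcript MIRLET7BHG, IGF2BP1, IGF2BP2, IGF2BP3, HMGA1, HMGA2, TRIM71 and DIS3L2. All 10 symbols matched a gene ID, and all 10 genes passed the filter on low counts, so each was tested. Total RNA was taken from the human embryonic stem cell line H1, which is an established line, kept for 4 days in Nutristem medium that was changed daily. In the LN521 group the wells were coated with laminin-521 alone (LN-521), and in the LN521+LN221 group with laminin-521 and laminin-221 together (LN-521+LN-221, the mixed coating). Laminins, proteins of the basement membrane, serve here as the culture surface, and both groups carried laminin-521. Each group held 3 wells, which the labels call biological replicates of this cell line, so p-values measure the spread between wells.

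LIN28A and LIN28B are RNA-binding proteins that keep let-7 microRNAs from maturing. They bind let-7 precursors, where their zinc knuckles recognise the letters GGAG in the loop, and recruit the uridylating enzymes TUT4 and TUT7, and the nuclease DIS3L2 degrades the tailed precursor. Mature let-7 in turn represses mRNAs that carry its seed match, among them LIN28B, HMGA2, TRIM71 and the IGF2BP genes, so the pathway forms a loop that is held in the LIN28-high, let-7-low state in pluripotent cells. The IGF2BP proteins bind and stabilise mRNAs, the HMGA proteins bend chromatin at AT-rich DNA, and TRIM71 is an RNA-binding ubiquitin ligase that represses mRNAs. These genes are highly expressed in embryonic cells and again in many tumours, hence the name oncofetal.

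The microRNA sequences are shown first because they define both ends of the pathway. The mature let-7 RNAs share their seed, bases 2 to 8 from the 5′ end, which is in capitals in the sequences below. In the RefSeq microRNA table (build GRCh38.p14), 11 mature microRNAs carry the seed GAGGUAG, from let-7a-5p to miR-98-5p. The MIRLET7BHG locus encodes let-7b-5p and 1 of the 3 genes for let-7a-5p, and let-7g-5p and miR-98-5p are printed as relatives from other loci. The seed carriers miR-4458 and miR-4500, which are not printed, are shorter, at 19 and 17 bases against 22 for the rest.
let-7a-5p: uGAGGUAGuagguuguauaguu
let-7b-5p: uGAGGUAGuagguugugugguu
let-7g-5p: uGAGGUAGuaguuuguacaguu
miR-98-5p: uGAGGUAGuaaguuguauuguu

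MIRLET7BHG (chr22:46053869-46113928, plus strand, GRCh38, a long non-coding RNA in GENCODE release 29) carries the hairpins of let-7a-3 and let-7b in its exons. The letters GGAG were searched on the hairpin strand between the mature arms, without overlap with them, and are in capitals where found. They occurred in 8 of the 11 let-7 family hairpins for which both arms are listed. Of 62 human hairpins with loops of the same length (23 to 36 bases), 27.4% held these letters. The 62 include the 11 let-7 family hairpins, so this share is not independent of them. The hairpins without them were those of let-7a-3, let-7b and miR-98, so both hairpins of MIRLET7BHG lacked these letters in this window, while those of let-7a-1 and let-7g held them. The hairpins lie at chr22:46112749-46112822 (plus strand) for let-7a-3, chr22:46113686-46113768 (plus strand) for let-7b, chr9:94175957-94176036 (plus strand) for let-7a-1 and chr3:52268278-52268361 (minus strand) for let-7g.
MIRLET7A3: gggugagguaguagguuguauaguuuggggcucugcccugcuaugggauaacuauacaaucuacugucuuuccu
MIRLET7B: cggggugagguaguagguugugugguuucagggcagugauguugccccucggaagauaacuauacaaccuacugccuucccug
MIRLET7A1: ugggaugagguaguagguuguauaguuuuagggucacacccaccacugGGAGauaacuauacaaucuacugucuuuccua
MIRLET7G: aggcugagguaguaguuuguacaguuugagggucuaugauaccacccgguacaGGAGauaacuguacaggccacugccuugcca

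At the other end of the pathway, the complement of the seed, CTACCTC, was searched on the mRNA strand of the 3′ UTR of the principal transcript of each gene in GENCODE release 29. Of the 9 protein-coding members, 8 held at least 1 match, and the exception was DIS3L2. Over 19559 protein-coding genes, 8.32% held a match. TRIM71 had 6 matches in 6015 bases, and LIN28B (4549 bases), IGF2BP1 (6206 bases) and HMGA2 (3003 bases) had 4 each. LIN28A, IGF2BP2, IGF2BP3 and HMGA1 had 1 each. Shares were then taken among genes whose 3′ UTR was 0.8 to 1.25 times as long. At least as many matches occurred in 0.128% for TRIM71, 0.233% for LIN28B, 0.556% for IGF2BP1 and 0.0993% for HMGA2. The share was 16.8% for LIN28A, 11.7% for IGF2BP2, 11.9% for IGF2BP3 and 8.54% for HMGA1. Each share counts the gene itself, so it cannot be 0. The HMGA2 count holds for the principal transcript HMGA2-204: the other 6 protein-coding transcripts of the basic set had 0 matches, including HMGA2-210 with a 3′ UTR of 7421 bases. The counts analysed here are summed over transcripts of a gene. The match nearest to the stop codon is printed for 6 members, with the seed match in capitals, to show that the pairing letters are the same while the flanks differ.
LIN28A, chr1:26427341-26427370, plus strand, exon 4 of 4: ttggagtgcacagcctattgaaCTACCTCa
LIN28B, chr6:105078805-105078834, plus strand, exon 4 of 4: ttcctttacccggttgcaaagtCTACCTCa
IGF2BP1, chr17:49051054-49051083, plus strand, exon 15 of 15: gcaatgctgtgtgcgaagtaaaCTACCTCa
HMGA2, chr12:65963293-65963320, plus strand, exon 5 of 5: ggggcgccaacgttcgatttCTACCTCa
TRIM71, chr3:32891961-32891990, plus strand, exon 4 of 4: aaagtacaacattgcttaagtcCTACCTCa
HMGA1, chr6:34245822-34245851, plus strand, exon 6 of 6: ccatttttcctctgttcacaaaCTACCTCt

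Libraries held 20606494 to 26836727 estimated counts. The cells had the markers of pluripotent cells: none of the 10 was under 1 CPM (counts scaled by library size) in all libraries, and their summed level was 8061 to 8352 CPM on LN-521 and 7707 to 7864 CPM on the mixed coating. POU5F1, NANOG and TDGF1 were the 3 of these 10 that were lower on the mixed coating at an adjusted p-value under 0.05, and none was higher, where 1.14% of all genes were called lower. Of the 10, 6 had a log2 fold change above 0, and the median was 0.02. The 3 calls became 2 without replicate 2 of the mixed coating, 0 with limma on log2(TPM + 1) or log2(TPM + 0.1) and 1 on TMM-scaled TPM. Markers of mesoderm summed to 4.38 to 5.41 CPM and those of endoderm to 0.380 to 1.31 CPM, with overlapping ranges in the groups. On LN-521 and on the mixed coating, the 7 neural markers summed to 206 to 234 and 219 to 239 CPM, the 6 trophoblast markers to 21.9 to 26.7 and 21.97 to 25.5 CPM, and the 7 fibroblast markers, of which LUM was at 0, to 433 to 498 and 431 to 436 CPM. THY1, from the fibroblast list, went from 84.1 ± 10.8 to 64.6 ± 2.97 CPM (edgeR adjusted p = 0.0146). DCX, from the neural list, went from 11.6 ± 0.547 to 8.60 ± 1.02 CPM (edgeR adjusted p = 0.0492; SD, n = 3 each for both genes). Each of these 2 genes was the one call among 4 tested genes of its list, and the neural list had 2 of the 4 above 0. No fibroblast marker passed without LN-521 replicate 3 or replicate 2 or 3 of the mixed coating, and no neural marker passed with DESeq2 or in 5 of the 6 fits that left out a library, all but that without LN-521 replicate 1. Neither list had a call in the 3 limma settings, and 2 fibroblast markers passed with DESeq2, with no filter beyond 1 count, with the replicate block and without LN-521 replicate 1. The part of these differences in the results below was not tested, nor was which cells the RNA of THY1 and DCX came from. In RNA from whole wells, fewer cells of a type and less RNA per cell cannot be told apart.

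The genes differed widely in level, which is compared between genes in TPM (transcript abundance corrected for length and library size). HMGA1 stood at 757 ± 27.9 TPM (SD, n = 3) and LIN28A at 633 ± 68.3 TPM on LN-521, ranks 101 and 104 by mean TPM over all libraries among 14570 protein-coding genes tested. IGF2BP3 followed at 189 ± 34.4 TPM, TRIM71 at 120 ± 12.4 TPM, IGF2BP1 at 71.0 ± 9.19 TPM and LIN28B at 58.6 ± 10.1 TPM. IGF2BP2 stood at 37.5 ± 3.32 TPM, HMGA2 at 17.1 ± 3.25 TPM and DIS3L2 at 9.0 ± 0.734 TPM. MIRLET7BHG was lowest, at 0.343 ± 0.142 TPM. Neighbours in this order did not overlap on LN-521 except IGF2BP1 and LIN28B, whose wells ranged from 62.6 to 80.8 and from 49.9 to 69.7 TPM. On LN-521+LN-221 the order was the same but for HMGA1 (703 ± 49.4 TPM) and LIN28A (762 ± 30.6 TPM), whose wells overlapped, as did those of IGF2BP1 and LIN28B. RNAs of the 7SL family, which belong to the signal recognition particle, made up 30.1% to 37.3% of the TPM of a library, so TPM differences between libraries also move with that share, and the coatings were compared on counts.

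**Figure D1:**
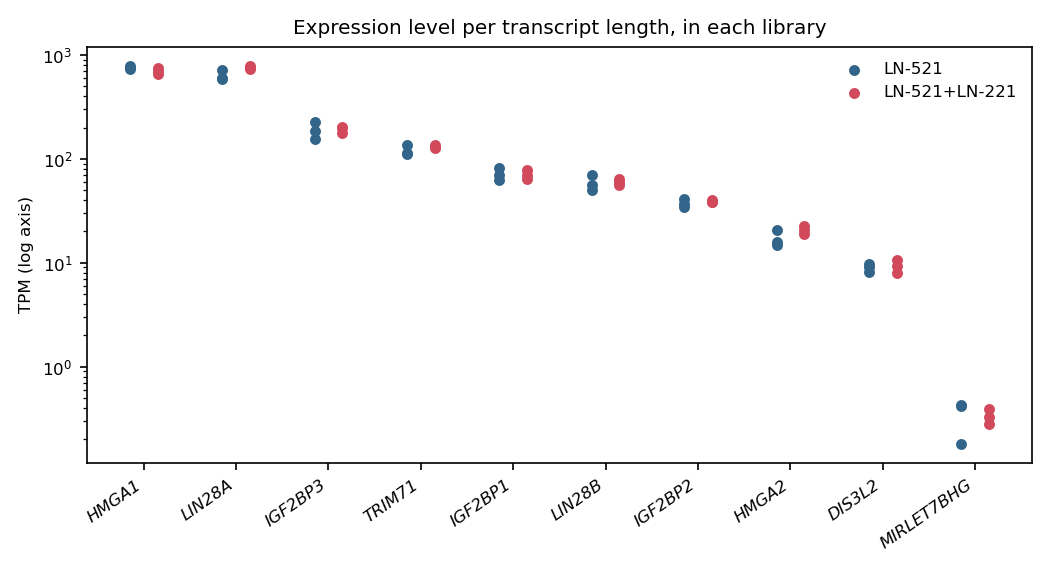
TPM of the 10 genes in each of the 6 libraries on a log axis, ordered by mean level, with LN-521 in blue and LN-521+LN-221 in red. HMGA1 and LIN28A lie between 585 and 786 TPM and MIRLET7BHG below 1 TPM, and the coatings lie close together for each gene.

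Of the 10 genes, 1 differed between the coatings: LIN28A was higher on the mixed coating. The adjusted p-value was under 0.05 for 2.53% of the 17608 genes tested (edgeR quasi-likelihood test, Benjamini-Hochberg), 1.40% higher and 1.14% lower. The median log2 fold change (mixed coating relative to LN-521) of the 10 was 0.0054, against -0.0011 over all genes, and 6 of the 10 were above 0. The groups did not overlap in CPM for LIN28A and TRIM71, 2 of 10, where 19.9% of all genes did not. The count of 1 depended on single libraries and settings, as it was 3 (LIN28A, HMGA1, HMGA2) without LN-521 replicate 1 and 0 without LN-521 replicate 3 or replicate 2 or 3 of the mixed coating. The share of all genes called moved as well: it was 6.54%, 3.56% and 1.13% without LN-521 replicates 1, 2 and 3, and 1.61%, 1.10% and 1.09% without those of the mixed coating. With all libraries it was 2.54% with RLE size factors, 2.39% with library size alone, 1.98% with no filter beyond 1 count, 3.00% with a filter of 1 CPM in 3 libraries, 2.95% with DESeq2 and 3.67% with the replicate number as a block. With limma it was 0.229% on log2(TPM + 1), 0.111% on log2(TPM + 0.1) and 0.513% on TMM-scaled TPM.

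**Figure D2:**
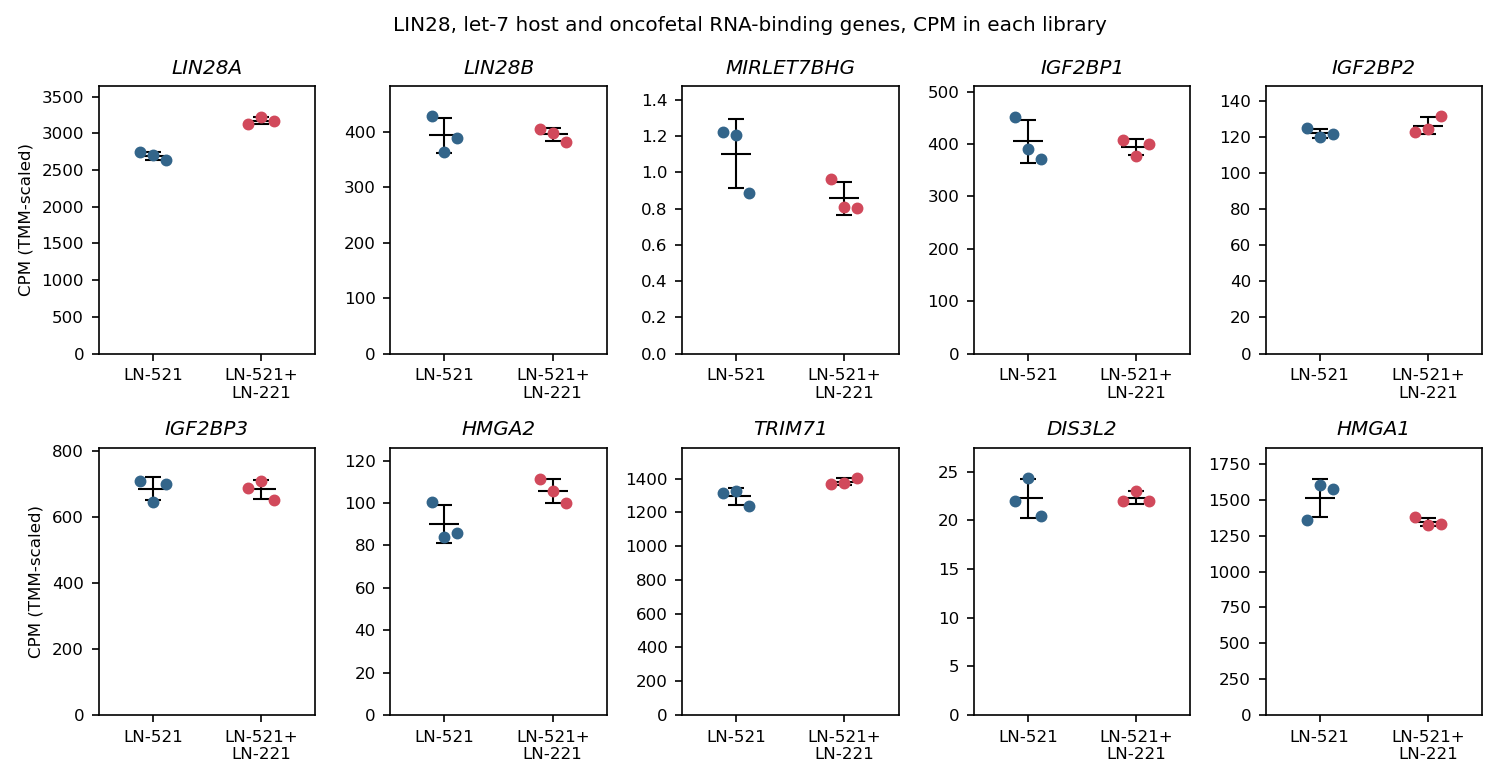
CPM of each of the 10 genes in each library (points), with the mean and SD of 3 wells per coating (black), on linear axes from 0. The LIN28A wells on the mixed coating lie above those on LN-521 (3124 to 3224 against 2635 to 2745 CPM), and most other genes overlap.

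LIN28A (ENSG00000131914, chr1:26410778-26429722) had 2745, 2703 and 2635 CPM in the wells on LN-521 and 3124, 3224 and 3164 CPM in those on the mixed coating. Every well on the mixed coating was above every well on LN-521 alone, and the gap between the groups was larger than the spread within either. The means were 2694 ± 55.6 and 3171 ± 50.7 CPM (SD, n = 3 each), a rise of 17.7%. The log2 fold change was 0.23 ± 0.05 (SE), with a 95% interval of 0.14 to 0.33 (edgeR adjusted p = 0.00737). With 1 library left out it ranged from 0.22 to 0.25, and the adjusted p (edgeR) was 0.0765 without LN-521 replicate 3, 0.112 without replicate 2 and 0.0568 without replicate 3 of the mixed coating. In TPM the groups did not overlap either, at 585 to 711 against 727 to 786. The same held for 12.9% of genes at 1 TPM or more in 3 libraries. Limma on log2(TPM + 1) gave 0.27 for LIN28A but did not call it (limma adjusted p = 0.549). The LIN28A pseudogene LIN28AP1 had 0 to 1 counts and LIN28AP2 had 0, and LIN28A counts were whole in all libraries.

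LIN28B (ENSG00000187772, chr6:104936616-105083332), the paralogue that carries 4 let-7 seed matches, had 428, 364 and 389 CPM on LN-521 and 406, 397 and 382 CPM on the mixed coating. The wells of the mixed coating fell inside the range of those on LN-521. The log2 fold change was 0.0059 ± 0.06 (SE), with an interval of -0.12 to 0.13 (edgeR adjusted p = 0.979). Its antisense neighbour LIN28B-AS1 had 3 to 8 counts. LIN28A took a larger share of the summed LIN28 TPM: 91.1%, 92.1% and 91.5% on LN-521 against 92.4%, 92.8% and 92.9% on the mixed coating, groups that did not overlap. The TPM ratio of LIN28A to LIN28B was 10.9 ± 0.767 on LN-521 and 12.7 ± 0.440 on the mixed coating (SD, n = 3 each).

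No let-7 host transcript passed the threshold, and most of the non-coding ones were scarce. MIRLET7BHG had 28, 32 and 22 counts on LN-521 and 20, 18 and 19 on the mixed coating. In CPM this was 1.22, 1.2 and 0.883 against 0.963, 0.807 and 0.802, and the groups overlapped. The log2 fold change was -0.36 ± 0.29 (SE), with an interval of -0.97 to 0.24 (edgeR adjusted p = 0.619). Differences within that interval, in either direction, remain compatible with these counts. Its exons overlap PRR34 on the other strand and PRR34-AS1 on its own, each at 0 to 2 counts. MIRLET7A1HG (chr9:94176458-94177892) had 116 to 154 counts, but the gene as annotated begins after the let-7a-1 and let-7f-1 hairpins and ends before that of let-7d, so it holds none of them. Of the other non-coding hosts, MIR100HG (let-7a-2) had 22 to 41 counts, MIRLET7IHG 40 to 75 and MIR99AHG (let-7c) 0 to 2. The protein-coding hosts were abundant: HUWE1, a ubiquitin ligase gene with let-7f-2 and miR-98 in its introns, had 589 to 627 CPM and WDR82, at the let-7g locus, 91.0 to 99.97 CPM. None of the 6 genes tested from the list of hosts passed the threshold (edgeR adjusted p = 0.619 to 0.931), and their median log2 fold change was -0.04. Of these, 0 reached an unadjusted p under 0.05 with edgeR or DESeq2. With edgeR 2.53% of all genes passed and 14.5% reached that unadjusted p.

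The let-7 precursors themselves were almost absent from these libraries. Of the 12 precursor genes, 10 were in the tables, and 9 of these had 0 counts in all 6 libraries. MIRLET7F1 had 1 count, in LN-521 replicate 1, which the deposited TPM table gives as 24.7 TPM for a gene of 87 bases. A count of 0 allows a level of up to 0.113 to 0.144 CPM per library (3 counts, counting error only). Libraries from this kind of kit keep long RNA, so mature let-7 was not measured.

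No gene that processes or uses microRNAs passed the threshold. All 22 of the list, from the nucleases DROSHA and DICER1 to the Argonaute and TNRC6 genes, were tested and 0 passed (edgeR and DESeq2), 4 had an unadjusted p under 0.05 in edgeR and 2 in DESeq2, and the median log2 fold change was 0.03. Over all genes 2.53% passed and 14.5% had an unadjusted p under 0.05 in edgeR (11.4% in DESeq2). The count of 4 became 8 without LN-521 replicate 1, where the share over all genes was 21.4%. It became 1 without LN-521 replicate 2 or 3 (14.99% and 10.5% of all genes), and 0, 0 and 2 without replicates 1, 2 and 3 of the mixed coating (11.3%, 9.77% and 11.05%). The smallest p belonged to ZC3H12A, a ribonuclease that cuts microRNA precursors: 4.09, 4.29 and 3.57 CPM on LN-521 and 2.79, 2.87 and 3.25 CPM on the mixed coating, a log2 difference of -0.42 ± 0.16 (SE, edgeR adjusted p = 0.227). Its groups did not overlap. The tailing enzymes TUT4 and TUT7 and the precursor-cutting nucleases DICER1 and DROSHA are given for their roles, and were named after their values were seen. Their log2 differences were 0.07 ± 0.06 for TUT4 (SE, edgeR adjusted p = 0.700), 0.07 ± 0.06 for TUT7 (adjusted p = 0.707), 0.08 ± 0.06 for DICER1 (adjusted p = 0.544) and -0.03 ± 0.07 for DROSHA (adjusted p = 0.887). The sign of TUT7 changed with limma on TMM-scaled TPM, and that of DROSHA with the 3 limma settings, without LN-521 replicate 1 and without replicate 2 of the mixed coating.

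DIS3L2 (ENSG00000144535, chr2:231961245-232344350), the nuclease that removes uridylated pre-let-7, had 22, 24.3 and 20.4 CPM on LN-521 and 22, 23.1 and 22 CPM on the mixed coating. The groups overlapped, and the log2 fold change was 0.0048 ± 0.09 (SE), with an interval of -0.18 to 0.19 (edgeR adjusted p = 0.988). Its counts were not whole in any library, as happens when reads are divided between genes, and it shares exon sequence with NRBF2P6 (2.07 to 24.7 counts). Of 7 DIS3-family, exosome and XRN nucleases tested, 0 passed the threshold and 0 reached an unadjusted p under 0.05 (edgeR and DESeq2), beside 2.53% and 14.5% of all genes with edgeR. Without LN-521 replicate 1, 2 of the 7 reached that unadjusted p, where 21.4% of all genes did. DIS3 had the smallest p, with a log2 fold change of 0.11 ± 0.06 (SE; adjusted p = 0.457).

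The IGF2BP genes encode paralogous mRNA-binding proteins, and all 3 overlapped between the coatings. IGF2BP1 (ENSG00000159217, chr17:48997412-49055650) had 452, 391 and 372 CPM on LN-521 and 407, 378 and 399 CPM on the mixed coating. IGF2BP2 (ENSG00000073792, chr3:185643739-185825056) had 125, 120 and 122 CPM, then 123, 124 and 132 CPM. IGF2BP3 (ENSG00000136231, chr7:23310209-23470467), the most abundant, had 709, 646 and 701 CPM, then 688, 710 and 652 CPM. None of the 3 differences between means exceeded the larger SD of its groups. The log2 fold changes were -0.04 ± 0.06 (SE; edgeR adjusted p = 0.851), 0.05 ± 0.05 (SE; adjusted p = 0.754) and -0.0044 ± 0.05 (SE; adjusted p = 0.983). The 95% intervals were -0.17 to 0.10 for IGF2BP1, -0.07 to 0.16 for IGF2BP2 and -0.12 to 0.11 for IGF2BP3. IGF2BP3 counts were not whole in any library, and its exons overlap MALSU1 (270 to 368 counts) on the other strand. Whether the counting used the strand is not given in the sources used here, so reads of a gene and of a neighbour on the other strand may not have been told apart.

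The make-up of the IGF2BP family is given as shares of its summed TPM. IGF2BP3 held 63.4 ± 2.79% of the summed TPM of the family on LN-521 and 63.6 ± 2.22% on the mixed coating (SD, n = 3 each). IGF2BP1 held 24.0 ± 2.43% and 23.5 ± 1.99%, and IGF2BP2 held 12.7 ± 0.749% and 12.9 ± 0.474%. Wells of the coatings overlapped for each of these shares.

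**Figure D3:**
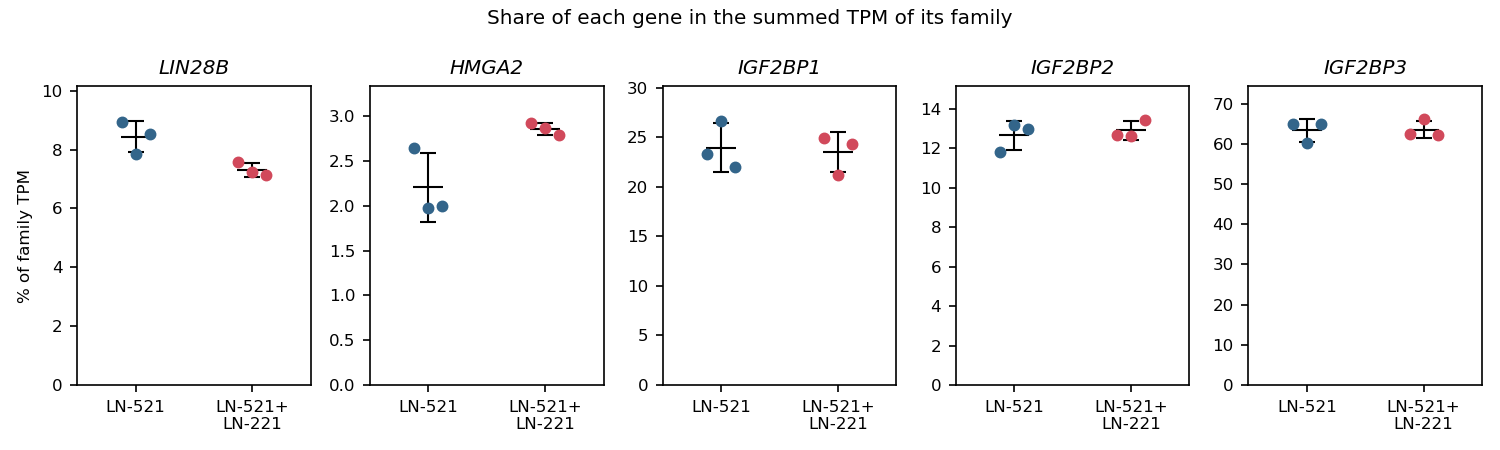
Share of each gene in the summed TPM of its family (percent, linear axes from 0) in each library, with mean and SD of 3 wells. LIN28B lies lower and HMGA2 higher on the mixed coating with no overlap, while the 3 IGF2BP genes overlap.

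The HMGA genes encode chromatin proteins with AT-hooks. HMGA2 (ENSG00000149948, chr12:65824131-65966295), a let-7 target, had 101, 84.0 and 85.9 CPM on LN-521 and 111, 106 and 99.9 CPM on the mixed coating. LN-521 replicate 1 reached into the range of the mixed coating, and the other wells on LN-521 lay below it. The log2 fold change was 0.23 ± 0.07 (SE), with an interval of 0.08 to 0.38, and it did not pass over all genes (edgeR adjusted p = 0.111). It did pass in 1 of the 6 fits that left out a library, that without LN-521 replicate 1 (0.31, edgeR adjusted p = 0.00131). Of the 9 other settings with all libraries it passed in 2. These were the replicate block (edgeR adjusted p = 0.0241) and no filter beyond 1 count (edgeR adjusted p = 0.0432). HMGA2-AS1, antisense to it, had 0 to 4 counts.

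HMGA1 (ENSG00000137309, chr6:34236873-34246231), far more abundant, had 1362, 1607 and 1577 CPM on LN-521 and 1378, 1324 and 1333 CPM on the mixed coating. Here too LN-521 replicate 1 lay among the wells of the mixed coating. The log2 fold change was -0.17 ± 0.06 (SE), with an interval of -0.30 to -0.05 (edgeR adjusted p = 0.160), and without LN-521 replicate 1 it was -0.24 (edgeR adjusted p = 6.33e-04). With limma on log2(TPM + 1) it was -0.11. Its 8 named pseudogenes had at most 13.97 counts. HMGA2 held 2.65%, 1.98% and 1.99% of the summed HMGA TPM on LN-521 and 2.92%, 2.87% and 2.79% on the mixed coating. These shares did not overlap between the groups, and again LN-521 replicate 1 was nearest to the mixed coating.

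TRIM71 (ENSG00000206557, chr3:32818018-32897826), the member with the most let-7 seed matches, had 1317, 1329 and 1237 CPM on LN-521 and 1366, 1375 and 1406 CPM on the mixed coating. The groups did not overlap in CPM but did in TPM (112 to 135 against 128 to 136). The log2 fold change was 0.09 ± 0.05 (SE), with an interval of -0.0076 to 0.20 (edgeR adjusted p = 0.391). Of 7 mRNAs known to be repressed by TRIM71, 6 were tested and 0 passed the threshold, while 1 had an unadjusted p under 0.05 (edgeR and DESeq2), beside 2.53% and 14.5% of all genes with edgeR. Without LN-521 replicate 1, 1 passed and 3 had an unadjusted p under 0.05, beside 6.54% and 21.4% of all genes. Without replicate 2 of the mixed coating both counts were 0, beside 1.10% and 9.77% of all genes.

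**Figure D4:**
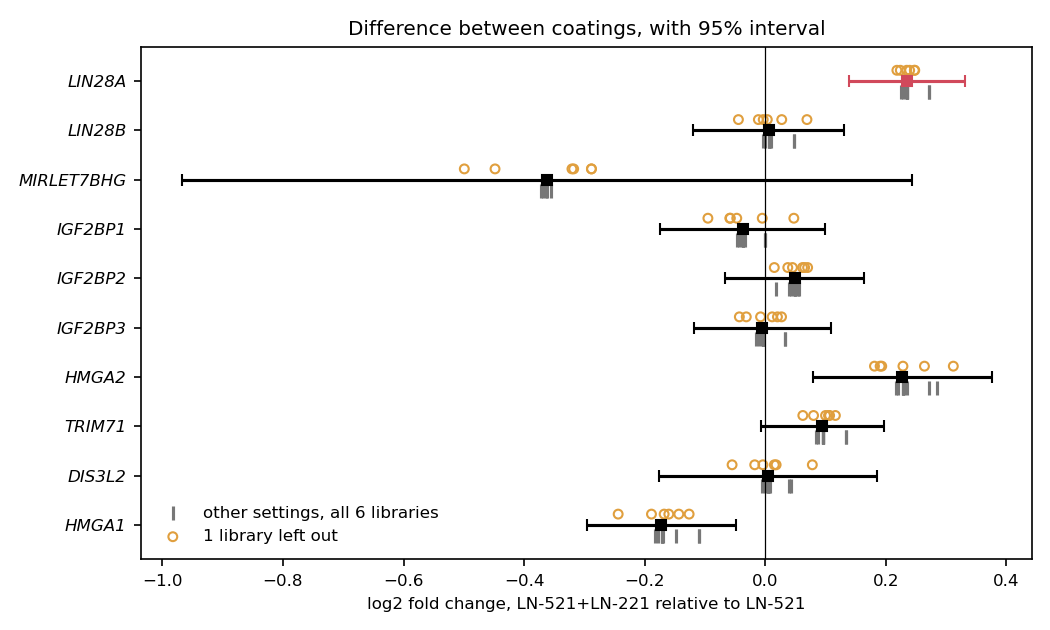
Log2 fold change (mixed coating relative to LN-521) of the 10 genes: squares with 95% intervals are the edgeR estimates, red where the adjusted p is under 0.05, grey ticks are the other settings with all libraries and open circles leave out 1 library. LIN28A is the gene in red at 0.23, and HMGA2 (0.23) and HMGA1 (-0.17) have intervals that leave out 0 before adjustment over all genes.

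Among known let-7 targets, calls were made in both directions. Of 37, all tested, 3 were higher and 2 lower at an adjusted p under 0.05, with a median log2 fold change of 0.02. LIN28A is among the 3. Over all genes 2.53% were called. The count of 5 changed when single libraries were left out. It was 10 without LN-521 replicate 1, 2 without LN-521 replicate 3, and 3, 2 and 2 without replicates 1, 2 and 3 of the mixed coating. It was 8 with no filter beyond 1 count and 1 in each limma setting. DUSP4, a phosphatase that turns off MAP kinases, had 2.87, 4.25 and 3.33 CPM on LN-521 and 8.57, 8.83 and 8.87 CPM on the mixed coating. This was a rise of 1.32 ± 0.15 (SE) on the log2 scale (edgeR adjusted p = 3.84e-05), with every well of the mixed coating above every other well. With limma the value was 0.60 on log2(TPM + 1), 1.14 on log2(TPM + 0.1) and 0.58 on TMM-scaled TPM, scales on which the pseudocount lowers the change of genes at low level. CCND1, which encodes the G1 cyclin D1, had 76.4, 70.6 and 61.5 CPM against 103, 114 and 114 CPM. It rose by 0.67 ± 0.07 (SE; edgeR adjusted p = 3.68e-05), again without overlap, and both genes passed in each fit that left out 1 library. CCND1 exons overlap LTO1 (175 to 222 counts) on the other strand.

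The let-7 targets that fell were ARID3B and MYC. ARID3B, a DNA-binding protein gene, had 109, 119 and 113 CPM on LN-521 and 94.0, 97.1 and 95.8 CPM on the mixed coating, a log2 difference of -0.25 ± 0.06 (SE, edgeR adjusted p = 0.0220). Its counts were not whole in any library. The transcription factor gene MYC had 26.4, 33.9 and 40.5 CPM, then 23.5, 20.05 and 23.1 CPM, a log2 difference of -0.60 ± 0.14 (SE, edgeR adjusted p = 0.0498). Neither call held in all of the 6 fits that left out a library. ARID3B passed in 2 and MYC in 1, in both cases without LN-521 replicate 1 (and for ARID3B also without LN-521 replicate 2). In these fits the log2 difference ranged from -0.28 to -0.21 for ARID3B and from -0.74 to -0.44 for MYC. The share of all genes called also fell without LN-521 replicate 3 and without each well of the mixed coating, and rose without LN-521 replicates 1 and 2. MYC also did not pass with RLE size factors.

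**Figure D5:**
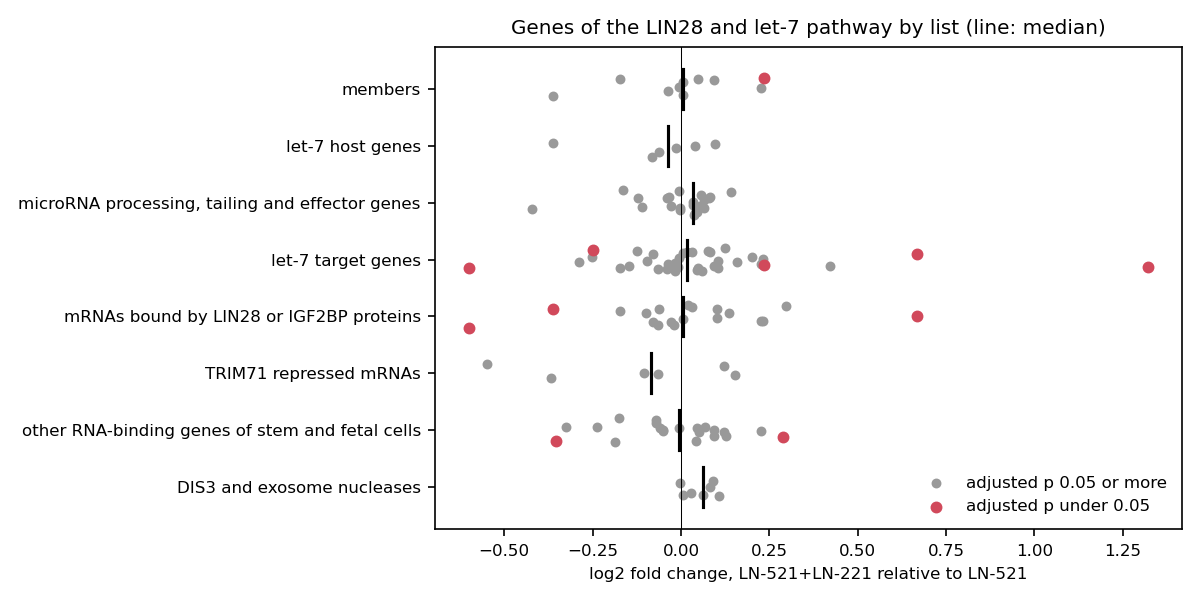
Log2 fold change (mixed coating relative to LN-521) of each gene tested in 8 lists of the pathway, red where the adjusted p is under 0.05, with a line at each list's median. The medians lie between -0.09 and 0.06, and the let-7 target genes hold red points on both sides of 0.

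Genes with a let-7 seed match were then counted across the table. Of 1403 genes tested with at least 1 match, 28 were higher and 26 lower (3.85% called), with a median log2 fold change of 0.0046. Of 13058 without a match, 185 were higher and 164 lower (2.67% called), with a median of -0.0030. Genes with a match also had longer 3′ UTRs, with a median of 2862 against 956 bases, and the part of length in the shares called was not tested. Of the 31 genes with 3 or more matches, which include LIN28B, IGF2BP1, HMGA2 and TRIM71, 0 passed the threshold with edgeR and 1 with DESeq2, 6 and 4 had an unadjusted p under 0.05, and the median log2 fold change was 0.02. The share of all genes at that unadjusted p was 14.5% with edgeR. Of the 31, 2 passed with no filter beyond 1 count, with the replicate block and without LN-521 replicate 1, and 1 with library size alone. Among genes with a match and among those without, the higher calls slightly outnumbered the lower in the edgeR fit with all libraries. Over all genes, 55.2% of the calls were higher in that fit. This share was 46.8% with no filter beyond 1 count and 81.8% with limma on log2(TPM + 1).

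The mRNAs that LIN28 or IGF2BP proteins are known to bind also split. Of 19 tested, 1 was higher (CCND1) and 2 were lower (MYC and POU5F1), with a median of 0.0059, where 2.53% of all genes were called. The 3 calls became 7 without LN-521 replicate 1, 1 without replicate 2 of the mixed coating, 2 in each other fit that left out a library, 6 with no filter beyond 1 count, 5 with the replicate block, 2 with RLE size factors and 0 in the limma settings. POU5F1, the core pluripotency factor whose mRNA is a known LIN28 target, had 1068, 1302 and 1273 CPM on LN-521 and 927, 932 and 975 CPM on the mixed coating, a log2 difference of -0.36 ± 0.06 (SE, edgeR adjusted p = 0.00366), a call lost when replicate 2 of the mixed coating was left out. Its counts were not whole in any library and it overlaps TCF19 on the other strand. LIN28A and POU5F1 moved in opposite directions in the same wells.

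Among 22 other RNA-binding genes of stem and fetal cells, 21 were tested, 1 was higher and 1 lower, with a median of -0.0045, where 2.53% of all genes were called. The 2 calls became 4 and 3 without LN-521 replicates 1 and 2, and 0 in each other fit that left out a library and in the limma settings. MSI2, an RNA-binding translational regulator, had 150, 139 and 130 CPM on LN-521 and 173, 170 and 169 CPM on the mixed coating, a log2 difference of 0.29 ± 0.06 (SE, edgeR adjusted p = 0.0100). RBM47, which takes part in RNA editing and splicing, had 24.8, 23.5 and 25.6 CPM, then 20.8, 19.1 and 18.1 CPM, a log2 difference of -0.35 ± 0.08 (SE, edgeR adjusted p = 0.0301), and of -0.22 with limma on log2(TPM + 1). Neither gene's groups overlapped. Each passed in 2 of the 6 fits that left out a library, those without LN-521 replicate 1 or 2. With limma on TPM, DUSP4 was the one gene among CCND1, DUSP4, ARID3B, MYC, POU5F1, MSI2 and RBM47 that still passed, with both pseudocounts but not after TMM scaling.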

How the data were processed

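The data are total RNA sequencing of 6 wells, prepared by a kit that marks strand and sequenced paired-end, per the labels' protocols. The submitters' processing notes name cutadapt, STAR 2.5.2b, RSEM 1.2.31 and hg38. The authors deposited a gene table of estimated counts (6.08% to 6.67% of values per library are not whole) and a table of TPM. Whether counting used the strand, and the annotation release, are not given in the sources used here. Symbols came from a table of gene names (93.1% of IDs matched), and gene models from GENCODE release 29 (93.8%).

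Estimated counts were rounded, filtered with filterByExpr (minimum count 10), scaled by TMM and compared with edgeR 4.0.16 (R 4.3.3; quasi-likelihood test, robust, all 6 libraries, no block), with Benjamini-Hochberg adjustment over 17608 genes and a threshold of 0.05. The SE is the absolute log2 fold change divided by the square root of F. CPM use TMM-scaled library sizes. Alternatives used DESeq2 1.42.0 and limma 3.58.1 (genes at 1 TPM or more in 3 libraries). The method was tested on simulated data. The members and gene lists were chosen with earlier results of these data known. Named genes are the members, the let-7 hosts and precursors, list genes with an adjusted p under 0.05 (at most 6 a list, by smallest p) and, for lists without one, the gene with the smallest p; 1 gene that this rule names is not reported here. NANOG, TDGF1, THY1, DCX, LUM, TUT4, TUT7, DICER1 and DROSHA were named outside this rule, after their values were seen. Replicates differed beyond sampling noise. The chi-square per degree of freedom was 7.21 to 15.6 between LN-521 wells and 2.85 to 5.93 between wells of the mixed coating. Sequences are from RefSeq (GRCh38.p14) and GENCODE.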

Additional observations from a re-analysis of the deposited data

How the results depend on the processing

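The count of members past the threshold was 1 with RLE size factors, library size alone, a filter of 1 CPM in 3 libraries and DESeq2. It was 3 with no filter beyond 1 count (LIN28A, HMGA1 and HMGA2), 2 with the replicate block (LIN28A and HMGA2), and 0 with limma on log2(TPM + 1), on log2(TPM + 0.1) and, with a trend, on TMM-scaled TPM. Leaving out 1 library gave 0 to 3 members. Over all genes the 446 calls became 718 with no filter, 33, 16 and 74 in the same limma settings, 646 with the replicate block, and 194 to 1179 with 1 library left out (1179 without LN-521 replicate 1, and 201, 290, 198 and 194 without LN-521 replicate 3 and LN-521+LN-221 replicates 1, 2 and 3). The replicate numbers were not taken as a pairing, since wells of equal number had correlations of 0.047, -0.022 and 0.0090 (of their distances from the mean of their group). The means with other numbers were -0.023, 0.010 and -0.0046. Wells of equal number thus lay above this mean for numbers 1 and 3 and below it for number 2. In the replicate block the log2 fold change of LIN28A was 0.24 and that of HMGA2 0.23 (edgeR adjusted p = 0.0241). LIN28A kept its direction in every setting run.

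Members near 0 changed sign. LIN28B was -5.9e-04 with library size alone and -0.0041 with no filter, and -0.044 to 0.069 with 1 library left out (-0.044, -0.0032 and -0.011 without LN-521 replicates 2 and 3 and LN-521+LN-221 replicate 1). IGF2BP1 was 4.2e-05 and 8.0e-05 and IGF2BP3 was 0.033 and 0.033 with log2(TPM + 1) and log2(TPM + 0.1). With 1 library left out IGF2BP1 ranged from -0.095 to 0.048 and IGF2BP3 from -0.043 to 0.027. Without LN-521 replicate 1 they were 0.048 and 0.020, and IGF2BP3 was 0.012 and 0.027 without LN-521 replicate 3 and LN-521+LN-221 replicate 3. DIS3L2 was -9.0e-04 with library size alone, -0.0050 with no filter, and -0.055 to 0.078 with 1 library left out (-0.0038, -0.055 and -0.017 without LN-521 replicates 1 and 3 and LN-521+LN-221 replicate 2). For these sign changes the cause was not tested. The settings for list genes outside the members were added after seeing the data. MIRLET7BHG had few counts and could not be tested by limma because it lay under 1 TPM.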
